A study of Caenorhabditis elegans with 12 samples.

Results

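The daf-19 daf-12 double mutant was compared with wild type in whole embryos of the nematode Caenorhabditis elegans of the 3-fold stage, which comes late in elongation of the embryo. The comparison covered all 22548 probe sets that are not array controls, with no choice by value. It used 7 of the 11 different arrays of the series, 3 of the double mutant and 4 of wild type. The double mutant, strain JT6924, carries the alleles daf-19(m86) and daf-12(sa204), and wild type is the N2 Bristol strain listed as JT5010. The remaining genotype, the daf-12(sa204) single mutant of strain JT204, gave 4 arrays, which entered the fit for its spread and are used below where the change is followed by way of that strain. The double mutant and wild type differ at both loci, so the comparison of these groups alone cannot tell the daf-19 allele from the daf-12 allele or from other differences between the strains. The labels do not say how many embryos went into a sample.

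DAF-19 is a transcription factor of the RFX family, which binds a promoter element called the X-box in genes for the sensory cilia of worm neurons. A cilium is built and kept up by intraflagellar transport (IFT), in which kinesin and dynein motors carry cargo on complexes named A and B. The BBSome is a further cargo complex of this transport, and the transition zone at the ciliary base is a gate for ciliary proteins. Worms without daf-19 function lack sensory cilia and form dauer larvae constitutively. DAF-12 is a nuclear hormone receptor that acts in the dauer decision, and mutations in it can keep such worms from dauer arrest. The study set out to find genes whose expression depends on DAF-19.

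Expression was measured on Affymetrix arrays and deposited as log2 values after RMA, a method that corrects background, normalizes between arrays and summarises the probes of a set. Values ran from 2.78 to 14.71, and array medians over all probe sets of the file, controls included, from 6.20 to 6.37. The columns of double mutant arrays 1 and 2 held the same value in each of the 22625 probe sets of the file and were counted as 1 array, called array 1-2. The poly-A spike-in controls, 24 probe sets, had a mean of 4.16 to 4.32 on replicates 1 and 2 of every genotype and of 7.16 to 10.21 on replicates 3 and 4. The replicates therefore fell into sets of arrays, 1-2 and 3-4, for which the labels give no reason, and results are also given within each set. Nothing in the labels says that replicates came from separate cultures, so p-values measure only the spread between these samples, and the number of arrays limits their precision. A probe set was called when its limma p, adjusted by Benjamini-Hochberg over all probe sets, was under 0.05.

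The transcript of daf-19 was lower in the double mutant. Its brighter probe set had log2 values of 8.88, 8.29 and 8.38 on double mutant arrays 1-2, 3 and 4, and of 10.28, 10.26, 9.75 and 10.25 on wild type arrays 1 to 4. All 3 mutant arrays lay below all 4 wild type arrays, and wild type array 3 was the lowest of its group. The mean fell by 1.62 ± 0.20 (SE, n = 3 and 4; adjusted p = 0.00891), a 3.07-fold lower level. A second daf-19 probe set had 7.20, 7.15 and 7.15 against 9.01, 9.77, 8.63 and 8.97, and it fell by 1.93 ± 0.23 (adjusted p = 0.00826). Where these probes lie relative to the m86 lesion was not checked. In whole embryos, fewer cells that express a gene and less RNA per cell cannot be told apart, here and for every gene below.

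The transcript of daf-12 was not called in any of its 3 probe sets. The brightest had 9.13, 8.24 and 8.33 in the double mutant against 8.96, 9.33, 8.09 and 8.83 in wild type, a difference of -0.23 ± 0.29 (adjusted p = 1.00). These arrays overlapped. Another probe set of daf-12 read 7.25 and 6.76 to 8.04 on replicates 1 and 2 of the double mutant and wild type, and 4.83 to 5.28 on replicates 3 and 4 of both. It separated the sets of arrays and not the genotypes. The sa204 allele is carried by both mutant strains, and a change in the protein need not show in these probes.

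limma called 23 probe sets lower in the double mutant, 0.102% of those tested, and 3 higher, 0.0133%. At an unadjusted p under 0.05 there were 469 lower and 436 higher. The 23 named 19 genes, with a further 2 probe sets that match several genes, and changed by 1.39 to 3.96 on the log2 scale. In all 26 the mutant arrays and the wild type arrays did not overlap, as was the case for 2.66% of all probe sets on the lower side and 1.53% on the higher side. Of the 19 genes called lower, 12 belonged to 6 lists of ciliary genes, among them tctn-1, dylt-2, osm-5 and bbs-5. A fit that blocked on array set called 44 lower (0.195%) and 7 higher (0.031%), with all 26 kept. With the replicate number as a block, 27 (0.12%) and 5 (0.0222%) were called when array 1-2 stood under number 1, and 30 and 4 under number 2.

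**Figure D1:**
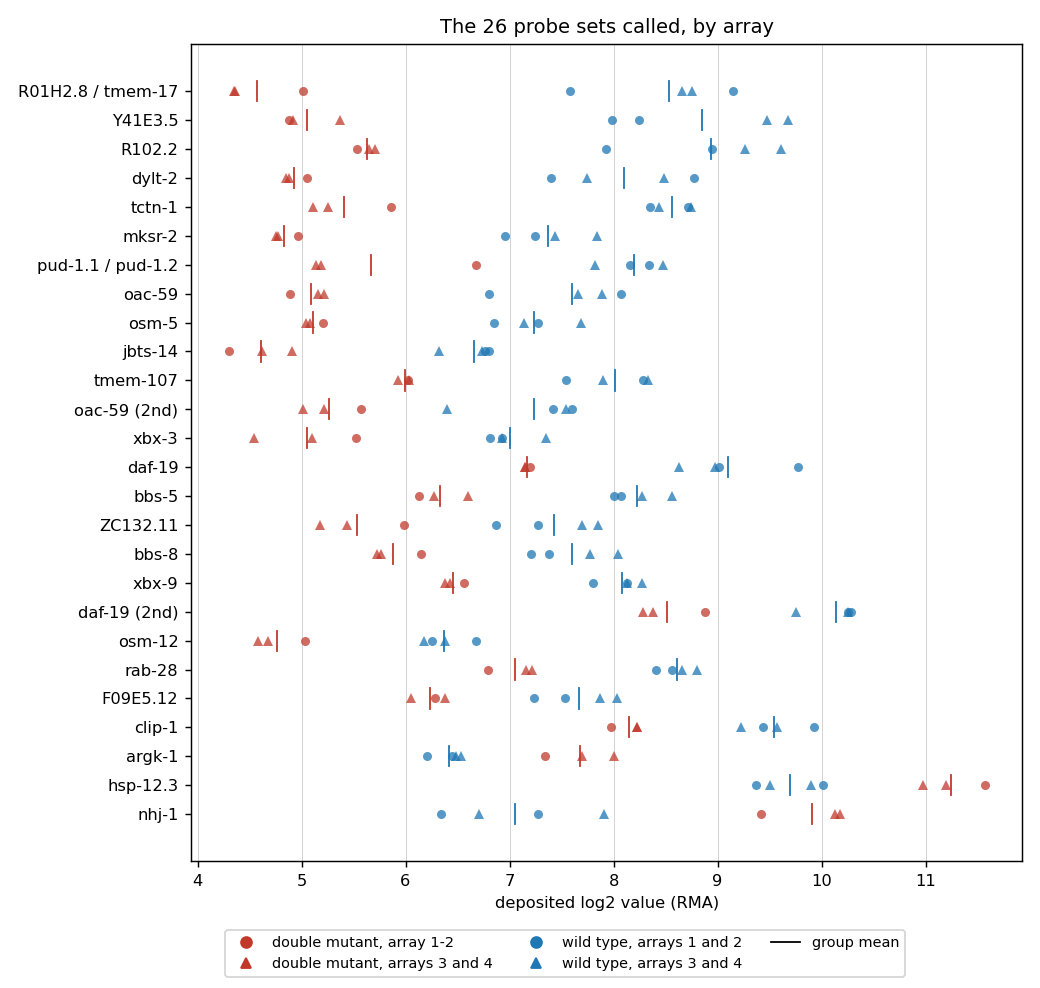
Deposited log2 value on each array for the 26 probe sets called, ordered by change, with circles for replicates 1 and 2, triangles for replicates 3 and 4 and a vertical line for each group mean. Red (double mutant) and blue (wild type) points do not overlap in any row, with red on the left in 23 and on the right in 3.

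The count of calls depended on single arrays. Leaving out double mutant array 3 gave 5 lower and 0 higher, and leaving out its array 4 gave 2 lower and 0 higher, for tctn-1 and the probe set shared by R01H2.8 and tmem-17. Without wild type array 4 there were 14 lower and 1 higher, and without array 1-2 there were 20 lower and 14 higher. No called probe set turned its direction in these fits. For Y41E3.5, R102.2 and bbs-5 the call was lost in 1 of the 11 fits that left out an array, the one without double mutant array 4.

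**Figure D2:**
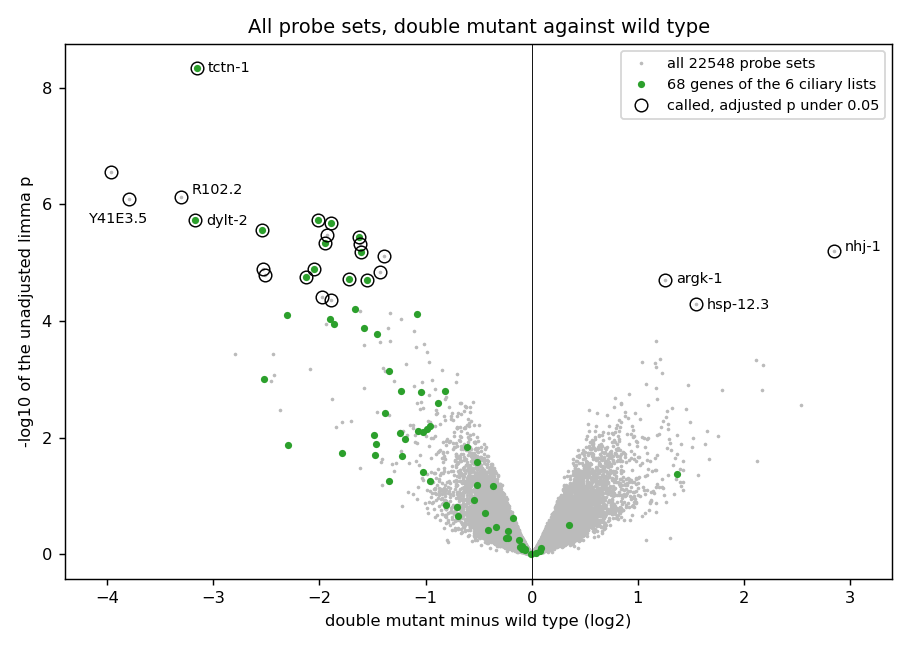
Double mutant minus wild type on the log2 scale against the −log10 of the unadjusted limma p for all 22548 probe sets, with the 68 genes of the 6 ciliary lists in green at the brightest probe set of each and called probe sets circled. The ciliary genes spread to the left of 0, and tctn-1 stands highest.

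The 6 ciliary lists hold IFT complexes B and A, the BBSome, the transition zone, the ciliary motors and other ciliary genes, 76 names in all, of which 68 had a probe set of their own. Of these 68 genes, 12 were called lower and 0 higher, where 0.105% of all 17118 genes were called lower and 0.0175% higher. There were 63 with a difference below 0, and the median was -1.03, against -0.03 over all genes. In 40 of the 68 every mutant array lay below every wild type array, against 2.82% of all genes. The mean level of the 68 was 5.99, 5.99 and 6.0 on the mutant arrays and 6.93, 7.09, 6.88 and 7.26 on the wild type arrays. The mutant arrays were nearly equal, and each lay well below the lowest wild type array. These genes were chosen because their link to cilia, and for many to DAF-19, is known, and some from earlier results of these same arrays, so the list is not independent evidence of its direction. Leaving out double mutant array 3 left 2 of the 68 called, leaving out its array 4 left 1, and leaving out wild type array 4 left 8. Those fits called 5, 2 and 14 of all 22548 probe sets lower, in the same order. With a replicate block 13 of the 68 were called lower and 0 higher, where 0.14% and 0.0292% of all genes were.

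**Figure D3:**
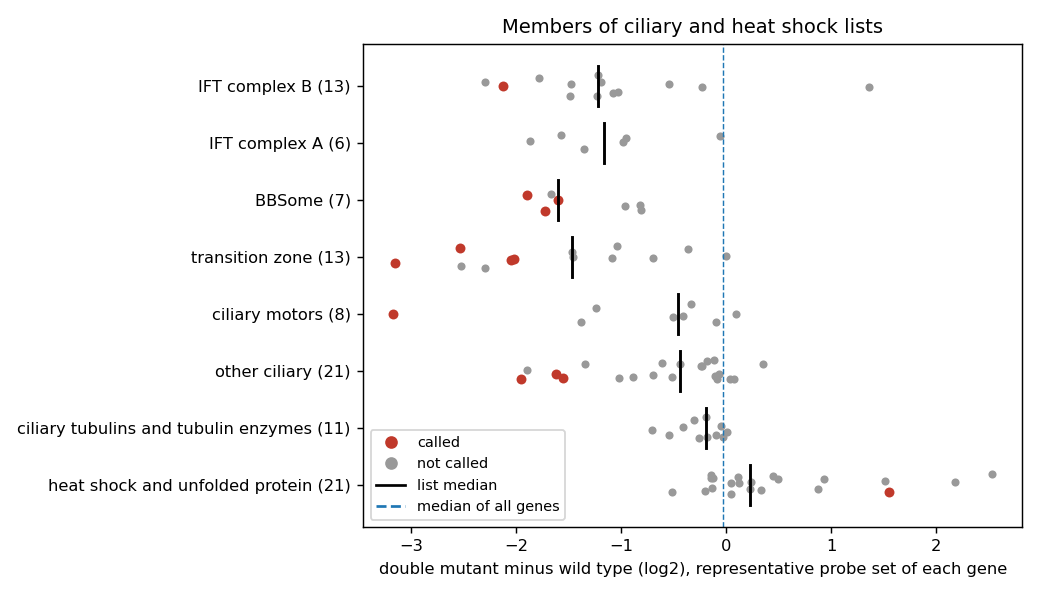
Double mutant minus wild type on the log2 scale for each measured gene of 8 lists, with the number of genes in brackets, called genes in red, a black line at the list median and a dashed line at the median of all genes. The BBSome and transition zone medians, -1.60 and -1.47, lie farthest to the left, and the heat shock list has 4 genes above 1.

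Transition zone genes held 4 of the 12 calls, where 0.105% of all genes were called lower. All 13 with a probe set of their own were at or below 0, with a median of -1.47. In 10 the mutant arrays lay below all wild type arrays, as in 2.82% of all genes. The gene tctn-1, for the membrane-associated protein tectonic, had 5.86, 5.11 and 5.25 in the double mutant and 8.72, 8.35, 8.74 and 8.44 in wild type. The mutant arrays spanned 5.11 to 5.86 and the wild type arrays 8.35 to 8.74, far apart on this scale. The change was -3.15 ± 0.20 (SE, n = 3 and 4; adjusted p = 0.000105), an 8.90-fold lower level, and it was -2.67 in replicates 1 and 2 and -3.41 in replicates 3 and 4 taken apart.

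The B9 domain gene mksr-2 had 4.97, 4.75 and 4.77 against 7.24, 6.95, 7.84 and 7.44, and fell by 2.54 ± 0.30 (adjusted p = 0.00774). The transmembrane gene tmem-107 had 6.03, 6.03 and 5.93 against 8.29, 7.54, 8.33 and 7.90, and fell by 2.02 ± 0.23 (adjusted p = 0.00675). For both genes the mutant arrays agreed more closely with each other than the wild type arrays did. The gene jbts-14 had 4.30, 4.90 and 4.62 against 6.81, 6.76, 6.32 and 6.73, and fell by 2.05 ± 0.28 (adjusted p = 0.0171). A second probe set of jbts-14 gave -1.43 ± 0.27 and was not called (adjusted p = 0.125).

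A single probe set matches both tmem-17, for another transition zone membrane protein, and its neighbour R01H2.8. It had 5.01, 4.35 and 4.36 in the double mutant against 9.14, 7.58, 8.66 and 8.75 in wild type. It fell by 3.96 ± 0.37 (SE, n = 3 and 4; adjusted p = 0.00311), a 15.6-fold lower level and the largest change of the 26. In the gene table no protein-coding gene lies between R01H2.8 and tmem-17, and these data cannot say which of them the change belongs to. The list count above does not include tmem-17 for that reason.

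Other transition zone genes were not called. The gene mks-6 had 5.35, 4.65 and 4.70 against 7.23, 7.70, 6.32 and 7.55, a difference of -2.30 ± 0.39 that just missed the threshold (adjusted p = 0.0575). Its arrays did not overlap, and wild type array 3 was the lowest of its group. The difference was -2.53 ± 0.58 in tmem-231 (adjusted p = 0.340), -1.46 ± 0.27 in mksr-1 (adjusted p = 0.0953) and -1.08 ± 0.18 in mks-1 (adjusted p = 0.0573). In mks-3 it was -1.47 ± 0.50 and the arrays overlapped. Of the nephrocystin genes, nphp-1 was at -1.04 ± 0.25 and nphp-4 at -0.70 ± 0.54. For nphp-4 the sign differed between the sets of arrays, at 0.20 in replicates 1 and 2 and -1.57 in replicates 3 and 4, a difference that was not called (adjusted p = 0.451). The smallest differences were in mks-5, at -0.36 ± 0.18, and in the centriole gene hyls-1, at 0.00 ± 0.30.

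All 7 measured BBSome genes had a difference below 0, with a median of -1.60. In all 7 the mutant arrays lay below all wild type arrays, as in 2.82% of all genes. Called lower, as were 0.105% of all genes, were bbs-5, bbs-8 and osm-12, the worm gene for BBS7. The values of bbs-5 were 6.13, 6.60 and 6.27 in the double mutant against 8.07, 8.01, 8.28 and 8.56 in wild type. It fell by 1.89 ± 0.22 (adjusted p = 0.00675), and the difference was -1.91 in replicates 1 and 2 and -1.98 in replicates 3 and 4, nearly the same size in both sets.

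For bbs-8 the values were 6.15, 5.73 and 5.76 against 7.38, 7.20, 7.78 and 8.04, and it fell by 1.72 ± 0.25 (adjusted p = 0.0191). For osm-12 they were 5.03, 4.58 and 4.68 against 6.25, 6.68, 6.17 and 6.38, and it fell by 1.60 ± 0.21 (adjusted p = 0.0106). With array 1-2 under replicate number 1, a replicate block gave osm-12 an adjusted p of 0.0550. In both genes array 1-2 was the highest of the mutant arrays. The gene bbs-1 was at -1.67 ± 0.27, just outside the threshold (adjusted p = 0.0514). Differences of -0.96 ± 0.45 in bbs-2, -0.82 ± 0.20 in arl-6, for the small GTPase that recruits the BBSome, and -0.81 ± 0.51 in bbs-9 were not called.

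In IFT complex B, 12 of 13 genes had a difference below 0, and the median was -1.22. Of the 13, 1 gene was called, where 0.105% of all genes were called lower. This was osm-5, the worm gene for IFT88, with 5.21, 5.04 and 5.08 in the double mutant against 7.27, 6.85, 7.14 and 7.69 in wild type. The mutant arrays lay close together and below all wild type arrays, and the level fell by 2.12 ± 0.30 (SE, n = 3 and 4; adjusted p = 0.0191). A second osm-5 probe set gave -0.96 ± 0.28 (adjusted p = 0.831). Its values, 5.51, 5.90 and 6.0 against 6.56, 7.09, 6.54 and 6.86, did not overlap either.

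Several complex B genes had differences as large as those called elsewhere but with a larger standard error. They were ifta-2 at -2.30 ± 0.78, che-13 at -1.78 ± 0.65, osm-1 at -1.49 ± 0.47 and dyf-1 at -1.48 ± 0.54, none called. The fit draws this error from the arrays of every genotype, and in each of these genes the daf-12 arrays spread most. In ifta-2 their standard deviation was 1.85, against 0.205 in the double mutant and 0.676 in wild type. Mutant and wild type arrays did not overlap in any of these genes. What part the spread of the daf-12 arrays had in the lack of a call was not tested. The fit of the 7 arrays alone, without a block, called 11 of the 68 ciliary genes lower, against 12 with the daf-12 arrays. Of all 22548 probe sets it called 16 lower, against 23. The differences were -1.23 ± 0.30 in che-2, -1.22 ± 0.45 in dyf-13, -1.20 ± 0.39 in osm-6, -1.07 ± 0.33 in dyf-3 and -1.03 ± 0.44 in ift-74. The remaining values were -0.54 ± 0.32 in dyf-6 and -0.23 ± 0.35 in ift-81. The gene dyf-11, for the complex B protein IFT54, had 4.98, 6.29 and 6.75 against 4.56, 4.79, 4.34 and 4.88, with mutant arrays above all wild type arrays and array 1-2 close to them. Its difference had the opposite sign, at 1.37 ± 0.60, and was not called (adjusted p = 1.00). On daf-12 arrays 1 to 4 the gene read 4.25, 4.36, 6.45 and 6.54. The daf-12 mean lay 0.76 above wild type and the double mutant mean 0.61 above daf-12, neither called. The difference of dyf-11 from wild type in the double mutant was 0.31 in replicates 1 and 2 and 1.91 in replicates 3 and 4. A fit of replicates 3 and 4 alone called 24 of the 68 ciliary genes lower and 1 higher. That fit called 130 of all 22548 probe sets lower and 67 higher. The non-overlap of dyf-11 was the only one on the higher side among the 68 ciliary genes, where 1.6% of all genes had one.

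All 6 genes of IFT complex A were below 0, with a median of -1.17, and none was called. The gene ift-139 had 4.43, 4.58 and 4.12 against 6.29, 6.27, 5.99 and 6.43, a difference of -1.87 ± 0.33 (adjusted p = 0.0729). Blocked on array set, it was -1.93 ± 0.30 and was called (adjusted p = 0.0243), but with a replicate block its adjusted p was 0.124 or 0.0864, for number 1 or 2. Its second probe set gave -0.38 ± 0.20 with an overlap. The difference was -1.58 ± 0.28 in ifta-1 (adjusted p = 0.0802), -1.35 ± 0.63 in che-11, -0.98 ± 0.30 in dyf-2 and -0.95 ± 0.29 in daf-10. In ift-43 it was -0.06 ± 0.26, within the spread between arrays.

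Of 8 ciliary motor genes, 7 were below 0, with a median of -0.46. Of the 8, 1 was called, where 0.105% of all genes were called lower. The called gene was dylt-2, for a Tctex-type light chain of the dynein that carries IFT particles back to the base. It had 5.05, 4.85 and 4.88 in the double mutant against 8.77, 7.40, 7.74 and 8.49 in wild type. The wild type arrays spread over more than 1 log2 unit and the mutant arrays over far less, with no overlap. The level fell by 3.17 ± 0.36 (SE, n = 3 and 4; adjusted p = 0.00675), a 9.01-fold lower level. Of the other dynein genes, xbx-1 (light intermediate chain) was at -1.38 ± 0.38 and che-3 (heavy chain) at -1.24 ± 0.39, neither called. The remaining one, dylt-1, was at 0.09 ± 0.29, with an overlap, and was not called. The kinesin genes had smaller differences, of -0.51 ± 0.25 in klp-11, -0.41 ± 0.45 in kap-1, -0.34 ± 0.33 in osm-3 and -0.09 ± 0.24 in klp-20. In each of these 4 the arrays overlapped, and the probe set is of a type (x_at, or s_at for osm-3) that can bind several transcripts.

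Of 21 other ciliary genes, 18 were below 0, with a median of -0.44. Of the 21, 3 were called, where 0.105% of all genes were called lower. These were xbx-3 and xbx-9, named for the X-box in their promoters, and rab-28, for a small GTPase. The gene xbx-3 had 5.52, 4.54 and 5.10 against 6.81, 6.93, 6.93 and 7.35, and fell by 1.95 ± 0.24 (adjusted p = 0.00891). For xbx-9 the values were 6.56, 6.38 and 6.43 against 7.80, 8.13, 8.28 and 8.13, and it fell by 1.62 ± 0.20 (adjusted p = 0.00826). For rab-28 they were 6.79, 7.16 and 7.22 against 8.56, 8.41, 8.80 and 8.66, and it fell by 1.55 ± 0.22 (adjusted p = 0.0191). In rab-28 array 1-2 was the lowest mutant array, and in xbx-3 and xbx-9 it was the highest.

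The genes dyf-17 and dyf-18 are those the study followed up, for a protein of the ciliary base and a kinase needed for IFT. The values of dyf-18 were 5.14, 4.92 and 5.0 in the double mutant against 5.80, 5.93, 5.99 and 6.45 in wild type. The groups did not overlap, but the difference of -1.02 ± 0.32 was not called (adjusted p = 0.937). For dyf-17 they were 4.58, 4.59 and 5.08 against 5.16, 5.02, 5.81 and 5.44, with an overlap, and a difference of -0.61 ± 0.21 (adjusted p = 1.00). Neither gene was called with either block. Genes of this list that lay within 0.25 of 0 were gasr-8, xbx-5, tub-1, xbx-6, nud-1, che-10, dyf-7, che-12 and unc-119, of which tub-1, for the tubby protein, was at -0.18 ± 0.14. The list of ciliary tubulins and tubulin enzymes had 10 of 11 below 0, a median of -0.19 and none called.

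Outside the ciliary lists, 6 genes were called lower besides daf-19, namely Y41E3.5, R102.2, oac-59, ZC132.11, F09E5.12 and clip-1, and so was a probe set shared by pud-1.1 and pud-1.2. The gene Y41E3.5 had 4.88, 5.37 and 4.92 against 7.99, 8.25, 9.68 and 9.48, and R102.2 had 5.53, 5.70 and 5.65 against 7.92, 8.95, 9.61 and 9.26. In both, the mutant arrays were close together, and wild type arrays 3 and 4 lay above arrays 1 and 2. The changes were -3.79 ± 0.40 in Y41E3.5 and -3.31 ± 0.34 in R102.2 (adjusted p = 0.00459 for each), 13.9-fold and 9.89-fold lower levels. In the lower and the higher numbered replicates they were -3.24 and -4.44 in Y41E3.5 and -2.90 and -3.76 in R102.2. The probe set of Y41E3.5 is of a type (x_at) that can bind transcripts of other genes.

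The gene oac-59, for a protein like O-acyltransferases, was called in both of its probe sets. The brighter read 4.89, 5.21 and 5.16 in the double mutant against 8.07, 6.80, 7.66 and 7.89 in wild type, and fell by 2.52 ± 0.36 (adjusted p = 0.0191). The dimmer fell by 1.97 ± 0.31 (adjusted p = 0.0370), and a replicate block gave it an adjusted p of 0.125 or 0.0869, for number 1 or 2. Thus 1 of the 2 probe sets kept its call under every block.

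The probe set shared by pud-1.1 and pud-1.2, near-identical genes for proteins found up-regulated in daf-2 mutants, had 6.68, 5.19 and 5.14 against 8.34, 8.16, 8.48 and 7.82. Array 1-2 stood more than 1 log2 unit above the other mutant arrays and still below wild type. The change was -2.53 ± 0.35 (adjusted p = 0.0171), or -1.57 in replicates 1 and 2 and -2.98 in replicates 3 and 4. The genes pud-3 and pud-4, which lie between this pair in the gene table, were at -0.05 ± 0.14 and -0.27 ± 0.25, not called.

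The remaining genes had smaller changes. ZC132.11 had 5.99, 5.18 and 5.44 against 6.87, 7.27, 7.70 and 7.85 and fell by 1.89 ± 0.30 (adjusted p = 0.0395), or adjusted p = 0.0614 with array 1-2 under number 1 of a replicate block. F09E5.12 had 6.28, 6.38 and 6.05 against 7.53, 7.24, 7.87 and 8.03 and fell by 1.43 ± 0.20 (adjusted p = 0.0183), or adjusted p = 0.0544 with array 1-2 under number 2. In neither did the groups overlap. The gene clip-1, for a protein of the CAP-Gly family that binds microtubule ends, was called in 1 probe set, at -1.39 ± 0.18 (adjusted p = 0.0116), or adjusted p = 0.0525 under number 1. Its brighter probe set read 9.89, 9.71 and 9.73 against 10.60, 10.75, 10.59 and 11.04, a difference of -0.97 ± 0.20 that was not called (adjusted p = 0.220).

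Called higher were nhj-1, hsp-12.3 and argk-1. The gene nhj-1, which acts in DNA repair by end joining, had 9.41, 10.18 and 10.13 in the double mutant against 6.34, 7.27, 6.70 and 7.91 in wild type. It rose by 2.85 ± 0.36 (SE, n = 3 and 4; adjusted p = 0.0106), a 7.22-fold higher level. Wild type arrays spread over more than 1 log2 unit and all lay below the mutant arrays, with differences of 2.61 and 2.85 in the sets of arrays. The other end joining genes, cku-70, cku-80, lig-4 and polq-1, were not called, and the median of the 5 was 0.77.

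In hsp-12.3, which codes for a small heat shock protein, the values were 11.57, 10.98 and 11.20 against 9.37, 10.01, 9.50 and 9.90, and rose by 1.55 ± 0.25 (adjusted p = 0.0442). The arginine kinase gene argk-1 had 7.34, 8.0 and 7.69 against 6.21, 6.45, 6.48 and 6.54, and rose by 1.26 ± 0.18 (adjusted p = 0.0191). In hsp-12.3 array 1-2 was the highest mutant array and in argk-1 the lowest. A replicate block gave argk-1 an adjusted p of 0.0551 or 0.0589, under number 1 or 2. In the fit of the 7 arrays alone, 0 probe sets were called higher, with 361 at an unadjusted p under 0.05.

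Of 21 heat shock and unfolded protein genes, 1 was called higher, where 0.0175% of all genes were, and 15 were above 0, with a median of 0.23. The call, of hsp-12.3, was kept in 2 of the 11 fits that left out an array. The heat-inducible chaperone gene hsp-70 had 6.36, 8.76 and 8.71 against 4.54, 5.30, 5.39 and 6.38, and the small heat shock gene hsp-16.2 had 9.55, 10.77 and 10.84 against 7.54, 7.60, 8.52 and 9.15. In both genes, replicates 3 and 4 of each genotype lay above its replicates 1 and 2. The differences, 2.54 ± 0.67 and 2.18 ± 0.46, were not called without a block and were called at 2.27 ± 0.33 and 1.99 ± 0.20 with a block on array set (adjusted p = 0.0179 and 0.00174). With a replicate block hsp-16.2 kept this call, and hsp-70 had an adjusted p of 0.0475 or 0.0665, under number 1 or 2. The gene hsp-16.2 has near-identical relatives, whose transcripts its probes may bind. The related hsp-16.41 was at 1.51 ± 0.52 and hsp-4, the endoplasmic reticulum chaperone BiP, at 0.93 ± 0.30, neither called. The constitutive chaperone gene hsp-1 was at 0.04 ± 0.18 and hsp-12.6 at 0.11 ± 0.32, neither called. The 6 genes below 0 included hsp-12.1 at -0.52 ± 0.32 and hsp-12.2 at -0.14 ± 0.18, and none of the 6 was called.

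The difference between double mutant and wild type was taken apart by set of arrays. All 23 probe sets called lower were lower in each set, and 18 had the larger difference in replicates 3 and 4. Their median difference was -1.88 in the first set (replicates 1 and 2) and -2.16 in the second (replicates 3 and 4). Over all probe sets the sign was the same in both sets in 49.7%, which includes the mostly small differences. A test of the difference between the sets called 0 probe sets, with 1803 at an unadjusted p under 0.05. The smallest adjusted p was 0.173, for the neuropeptide gene nlp-17, at 1.46 in the first set and -1.07 in the second. Its values were 10.47, 9.38 and 9.35 in the double mutant and 9.08, 8.93, 10.49 and 10.38 in wild type, so the mutant was high in one set and wild type in the other. The dynein light chain gene dlc-2 (1.38 and -0.94) and the glutathione S-transferase gene gst-30 (1.39 and -1.25) had the same form, and neither was called.

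**Figure D4:**
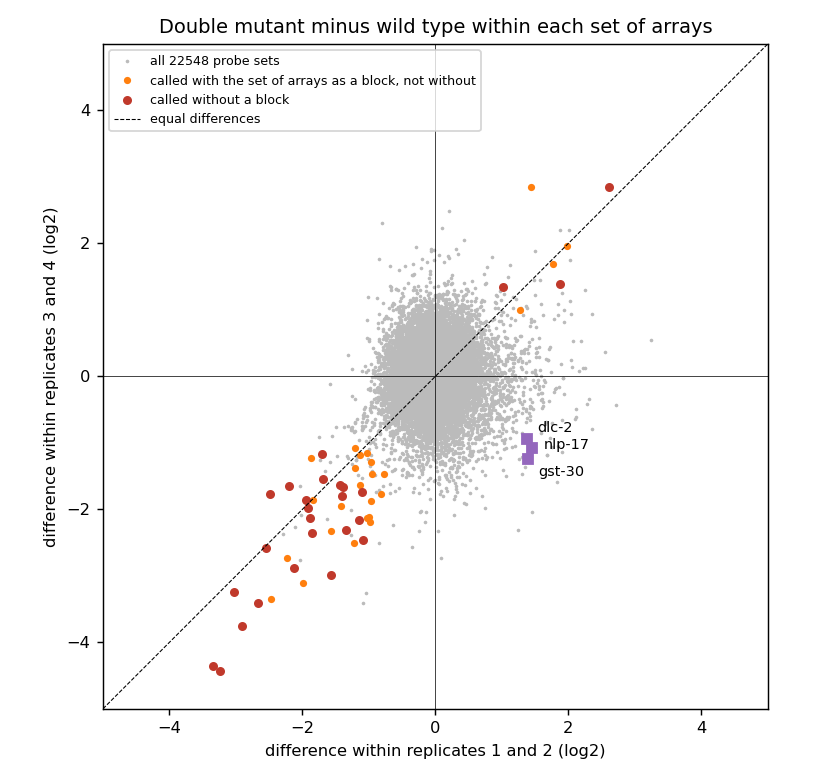
Double mutant minus wild type on the log2 scale within replicates 3 and 4 against the same within replicates 1 and 2, for all 22548 probe sets, with called probe sets in red, those called with array set as a block and not without it in orange and the dashed line at equal differences. The red points lie at the lower left and upper right, 18 of the 23 lower ones below the dashed line, while nlp-17, gst-30 and dlc-2 lie in the lower right.

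Some genes not called without a block were called when array set was a block. Under a replicate block 9 of the 24 such genes were called with array 1-2 under either number, 4 under 1 of the numbers and 11 under neither. Of ciliary genes the 24 held xbx-4, bbs-1, arl-3, dyf-3, mks-1 and ift-139, which took the number of the 68 called lower from 12 to 18, with 0 higher, where 0.222% of all genes were called lower and 0.0409% higher. With a replicate block xbx-4 and mks-1 were called and the other 4 were not. The gene xbx-4 had 5.99, 5.95 and 5.61 against 7.40, 7.04, 8.40 and 8.17, with wild type replicates 3 and 4 above replicates 1 and 2, and was at -1.99 ± 0.25 in that fit (adjusted p = 0.00608). The small GTPase gene arl-3 was at -1.44 ± 0.22 (adjusted p = 0.0249), and with a replicate block its adjusted p was 0.116 or 0.123. The transition zone gene mks-1 had 4.27, 4.35 and 4.32 against 5.32, 5.28, 5.49 and 5.50, close together in both groups, and was at -1.13 ± 0.14 (adjusted p = 0.00548).

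Among genes outside the ciliary lists, F55A4.3 had the largest change of those called with the block and not without it. It had 4.64, 5.39 and 5.40 against 6.84, 7.39, 8.58 and 8.92, and was at -3.02 ± 0.24 (adjusted p = 0.000551). The gene C33A12.4 had 8.01, 8.40 and 9.04 against 10.30, 9.68, 11.47 and 12.19 and was at -2.64 ± 0.30 (adjusted p = 0.00369). In both, the sets of arrays differed in wild type by more than 1 log2 unit, and mutant and wild type did not overlap. Both were also called with a replicate block under either number. The others with a predicted product were ptp-8, a tyrosine phosphatase (-2.06 ± 0.20), erp-44.3, a relative of the chaperone ERp44 (-1.64 ± 0.27), wrt-6, a hedgehog-related protein (-1.16 ± 0.15), cng-2, a cyclic nucleotide-gated channel subunit (-1.15 ± 0.18) and clc-31, a claudin-like protein (-1.11 ± 0.16). Called lower too were K07C11.10, Y106G6H.13, R10H10.4, W09H1.1, F47G4.5, F53G12.4 and Y50C1A.2, at -2.61 to -1.28. With a replicate block ptp-8, K07C11.10 and Y106G6H.13 were called under either number, wrt-6, R10H10.4 and F47G4.5 under 1 of the numbers, and the others under neither.

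Called higher with that block and not without it were hsp-70, hsp-16.2, R11A5.3 and F22B8.7. The values of R11A5.3 were 8.02, 10.50 and 10.29 in the double mutant against 6.28, 6.22, 8.45 and 8.95 in wild type. The genotypes overlapped across the sets and were apart within each, at 1.77 and 1.69, and the block gave 1.77 ± 0.20 (adjusted p = 0.00369), a call that a replicate block kept. F22B8.7 had 8.72, 8.98 and 8.92 against 7.22, 7.68, 7.82 and 8.06 and was at 1.12 ± 0.18 (adjusted p = 0.0272), with an adjusted p of 0.125 or 0.152 under a replicate block. In the gene table F22B8.7 and argk-1 are separated by the genes str-7 and cth-1, which were at 0.20 ± 0.19 and 0.04 ± 0.30, not called.

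The change was also split by way of the daf-12 single mutant, as the double mutant minus daf-12 and daf-12 minus wild type. These comparisons share the daf-12 arrays with each other and the double mutant or wild type arrays with the comparison above, so the values are given side by side. limma called 13 of the 22548 probe sets between the double mutant and daf-12 (0.0577%) and 3 between daf-12 and wild type (0.0133%). For tctn-1 the parts were -2.66 ± 0.20 and -0.49 ± 0.19, and for Y41E3.5 they were -3.49 and -0.30. For daf-19 they were -1.45 and -0.17. In all 23 probe sets called lower, the larger part lay between the double mutant and daf-12, and none was called between daf-12 and wild type.

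The genes called higher divided otherwise. For nhj-1 the parts were 0.08 ± 0.36 and 2.77 ± 0.34, and the second was called (adjusted p = 0.0382), so the daf-12 mutant had a level close to that of the double mutant. For hsp-12.3 they were 0.59 and 0.96, neither called. For argk-1 they were 1.10 and 0.16, with nearly all of the change between the double mutant and daf-12 and neither part called.

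**Figure D5:**
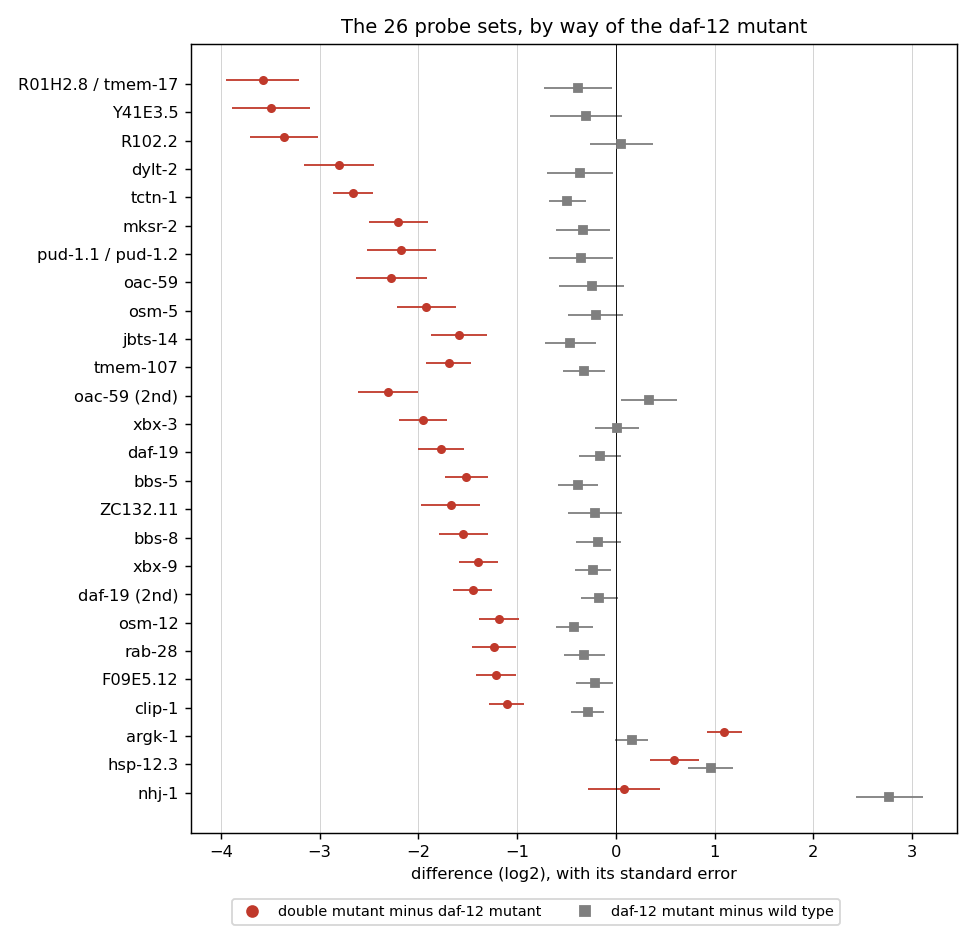
Log2 differences of the double mutant from the daf-12 mutant (red circles) and of the daf-12 mutant from wild type (grey squares) for the 26 probe sets called, with bars of 1 standard error. The red points of the 23 lower probe sets lie left of all their grey points, and for nhj-1 the grey point lies at 2.77 and the red at 0.08.

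Markers of tissues and stages were described in the same way. None of the lists of neuronal and synaptic, touch receptor neuron, amphid glia, body wall muscle, pharynx, intestine, epidermis, early embryo, germline, yolk protein and sperm protein genes held a called gene. Their medians ran from -0.13 for the 23 major sperm protein genes to 0.18 for the 17 intestine genes. The mean level of the 28 neuronal and synaptic genes was 8.28, 8.17 and 8.23 on the mutant arrays and 8.07, 8.69, 8.11 and 8.56 on the wild type arrays. The mutant arrays lay inside the range of wild type. The major sperm protein genes, which are not embryonic, had a mean level of 6.08, 6.75 and 6.53 against 6.93, 5.96, 7.26 and 6.28, with overlap. The part of sample make-up in the changes above was not tested.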

How the data were processed

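RNA of whole 3-fold stage embryos was measured on 12 Affymetrix arrays, 4 columns for each of 3 genotypes, all mapped by title. The authors deposited log2 values, made with RMA per the submitters' processing notes, with its version and settings not given in the sources used here. No pseudocount was needed. The 77 control probe sets were left out. Of the rest, the platform annotation gave 20766 a single gene name, 887 several and 895 none. A WBcel235 gene table, used for names and neighbours, held 20701 of the 20766 and changed 0 symbols. The probe set with the highest mean stood for each of 17118 genes, and Affymetrix suffixes s_at and x_at mark probe sets that can bind several transcripts.

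Group means of 11 different arrays were compared by lmFit and eBayes of limma 3.58.1 under R 4.3.3, two-sided, with Benjamini-Hochberg adjustment over 22548 probe sets, a threshold of 0.05 and no block. The fit was run on simulated data with planted changes and independent noise. That simulation had no difference between sets of arrays, so it does not test the fit under such a difference. The members, gene lists and tests were chosen with earlier results of these data known, so no list is independent evidence. Named were daf-19, daf-12, dyf-17, dyf-18 and mks-6, called genes, genes called when blocked on array set and not without a block, up to 4 called members of a list or the 2 with the smallest p, the 6 with the smallest p for a difference between sets, and any member of the ciliary and heat shock lists. The genes pud-3, pud-4, str-7, cth-1 and the end joining genes beside nhj-1 were chosen after their values were seen.

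Deviations from group means of same-numbered arrays of the double mutant and wild type correlated at 0.415, 0.393, 0.493 and 0.332, with array 1-2 under both of its numbers. Differently numbered arrays of the same set correlated at 0.342 (double mutant 4 with wild type 3) and 0.214 (double mutant 3 with wild type 4). This measure therefore cannot tell pairs by number from the sets of arrays. The replicate block treated the numbers as pairs, although they are nested in the sets of arrays and the labels say nothing of pairs. Alternatives were blocks, subsets of arrays, a filter on low values, other scalings, other variance models, array weights and leaving out each array.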

Additional observations from a re-analysis of the deposited data

Results flagged for a closer look

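In 7 of 118 probe sets of named genes, 1 wild type array stood apart from the other 3, with a gap to the nearest of more than 0.829 of the whole range. With 4 arrays a group, chance flags about 1 in 20 groups. Array 3 was low for daf-19 (9.75, the others 10.25 to 10.28), for a probe set of oac-59 (6.40, the others 7.41 to 7.60) and for jbts-14 (6.32, the others 6.73 to 6.81). Array 2 was low for the chemoreceptor gene sri-47 (4.33, the others 4.91 to 4.98), and high for the muscle gene unc-15 (12.45, the others 11.34 to 11.47) and the nuclear hormone receptor gene nhr-216 (4.68, the others 4.30 to 4.36). Array 1 was low for the insulin-like gene ins-4 (4.59, the others 5.82 to 6.06). For daf-19, oac-59 and jbts-14 the stray array was the wild type one nearest to the double mutant.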

How the results depend on the processing

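The count of 23 lower and 3 higher probe sets became 44 and 7 when blocked on array set. In the 7 arrays of the groups alone 0 were higher and 16 were lower, of which 14 were among the 23. The lower calls lost there were both daf-19 probe sets, the dimmer one of oac-59, xbx-3, bbs-8, ZC132.11, F09E5.12, clip-1 and pud-1.1/pud-1.2. Other counts that moved by more than 1.5 times were 5 higher with a replicate block, 39 lower with all 12 arrays as separate samples, 0 and 0 in replicates 1 and 2 alone (317 and 292 at an unadjusted p under 0.05), 130 and 67 in replicates 3 and 4 alone, and 164 and 216 with array weights. Leaving out 1 array gave 2 to 27 lower and 0 to 14 higher. The weights did not converge and put 12 on double mutant array 4 against 0.430 on array 1-2. The cause of these shifts was not tested. Scaling, the filter on low values, the variance models and the 7 arrays alone with a set block kept both counts within 1.5 times. The brighter daf-19 probe set stayed below wild type at -1.80 to -1.50 when 1 array was left out, and it lost its call without double mutant array 3 or 4, in replicates 1 and 2 alone (-1.39) and with the 7 arrays alone (-1.62). In replicates 1 and 2 alone signs turned for 6 of the 68 ciliary and 4 of the 21 heat shock genes and, of the other named genes, for daf-36 (0.19), sgk-1 (-0.0365), snt-1 (0.0275), let-805 (0.31) and his-59 (-0.12), none of them called. Of the 26 calls made without a block, the replicate block ended only those given an adjusted p above 0.05 under it in the Results. A search for X-boxes in promoters was not run, as no promoter sequence was used here. RMA values carry no detection calls, so low levels cannot be told from background.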

Other observations

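Several larger families had no gene called without a block. Of 80 hedgehog-related and patched-related genes, 63 were below 0, as were 9535 of all 17118 genes, and the median was -0.21 against -0.03 over all genes. In 9 the arrays did not overlap on the lower side, as in 2.82% of all genes, and 1, wrt-6, was called when array set was a block. Of 26 genes of DNA replication and the cell cycle, 24 were above 0, with a median of 0.27, but it was -0.05 in replicates 1 and 2 alone and 0.38 in replicates 3 and 4 alone. By way of the daf-12 mutant it was 0.59 between the double mutant and daf-12 and -0.25 between daf-12 and wild type. The median over 32 histone genes was 0.15, or -0.13 and 0.21 in the respective sets of arrays. Over 1276 chemoreceptor genes it was -0.12, or 0.03 and -0.14.

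The oxidative and metal stress list had a median of 0.26 over 12 genes. Its median was -0.09 between the double mutant and daf-12 and 0.54 between daf-12 and wild type. These are separate medians, which need not add up. The superoxide dismutase gene sod-5 had 8.31, 9.04 and 8.94 in the double mutant against 6.21, 7.23, 8.19 and 7.61 in wild type, a difference of 1.45 ± 0.39 that was not called (adjusted p = 0.668). Its mutant arrays lay above all wild type arrays. For sod-3 the difference was 0.96 ± 0.37, with 0.98 between daf-12 and wild type and -0.02 between the double mutant and daf-12, none called.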
